A study of Mus musculus with 4 samples.

Results

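Jchain encodes the joining chain that links immunoglobulin M and A into polymers, and it was examined with 8 other genes of the B lineage in double positive thymocytes, immature T cells that carry both CD4 and CD8. The members were all probe sets whose only gene symbol in the array annotation was Jchain, Pou2af1, Cd79a, Cd79b, Pax5, Ebf1, Blnk, Blk or Spib, 14 probe sets of 45037 in all and 9 genes of 18193. They were selected on an earlier result of the same arrays, the high Jchain signal of the Cre-positive mice, so the member values below are a description and carry no test. Both groups were Ikf/f, carrying floxed Ikaros (Ikzf1) alleles. The 2 mice labelled Ikf/f CD4-Cre- are called Cre-negative, and the 2 labelled Ikf/f CD4-Cre+ are called Cre-positive. In the latter a CD4-Cre transgene, in which Cre is driven by Cd4 regulatory sequence, is meant to delete Ikaros. Cre-positive mice without floxed alleles were not analysed here, so Cre itself and Ikaros loss cannot be told apart. One Affymetrix array was hybridised per mouse. The sources used here state neither the ages of the mice nor how the cells were isolated. Each array is a separate mouse by its label, so errors and p-values rest on 2 mice per group. The SEs and limma p-values below also draw on the spread of all probe sets, so they do not measure that of a single gene alone.

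In B cell development Ebf1 and Pax5 are the transcription factors that specify and hold the lineage, Spib and Pou2af1 act with other factors at B cell genes, and Cd79a and Cd79b are the signalling chains of the B cell receptor. Blk is a Src family kinase and Blnk an adaptor downstream of that receptor. Jchain itself is best known from antibody-secreting plasma cells, where it is made together with immunoglobulin. Several members are not exclusive to B cells: Spib and Jchain are also transcribed in plasmacytoid dendritic cells, and Cd79b in early thymocytes. Ikaros, a DNA-binding protein with zinc fingers, is needed for lymphocyte development.

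The arrays had RMA signals, which are log2 values after background subtraction and normalization, with medians between 5.19 and 5.25 and lower quartiles between 3.73 and 3.78. Ikzf1 fell by 1.53 in its brighter probe set (SE 0.15, limma adjusted p = 0.0288), a call lost with any array left out, and differed by −0.22 in the dimmer one. Thymocyte genes kept high signals: Rag1 averaged 13.44 and 13.33, Cd8a 13.02 and 12.71, and Cd4 10.56 and 10.42, the Cre-negative mean being given first. Cre-negative sample 2 stood apart in sex-linked transcripts, with Xist at 12.75 against 4.73 to 5.37 on the other arrays. The Y-linked gene Kdm5d read 2.86 on that array against 8.23 to 8.37 on the others. By these transcripts that mouse read as female and the others as male, so sex was not balanced between the groups. For a single value, the smallest two-sided p that an exact permutation of 2 against 2 arrays allows is 0.333. Calls of other genes therefore rest on limma, fitted over all 45037 probe sets with the spread shared among them, at a Benjamini-Hochberg adjusted p under 0.05.

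Jchain went from the lower part of the signal range to its upper part. Its single probe set read 3.47 and 3.81 on the Cre-negative arrays, and 7.60 and 7.45 on the Cre-positive arrays, in each case in the order of the sample numbers. The groups lay far apart, and the 2 mice within each group were close to one another. The means were 3.64 ± 0.24 and 7.52 ± 0.10 (SD, n = 2 each), a difference of 3.89 (SE 0.15), or 14.8-fold on the linear scale. The Cre-negative mean lay above 22.4% of all probe sets and the Cre-positive mean above 74.4%. The Cre-negative signals lay near or below the lower quartile of the arrays, where RMA signals hold little above background, so the fold has an uncertain size. The difference ranked 9 from the top among 45037 probe sets. It was between 3.72 and 4.06 with any array left out, and 4.06 without Cre-negative sample 2.

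Spib, an Ets family transcription factor, had the next largest difference among the members. Its probe set read 3.90 and 3.87 on the Cre-negative arrays, and 5.66 and 4.50 on those of Cre-positive samples 1 and 2. Both Cre-positive arrays were above both Cre-negative arrays, but they were also far from each other, unlike those of Jchain. The means were 3.88 ± 0.02 and 5.08 ± 0.82 (SD, n = 2 each), a difference of 1.20 (SE 0.36). The size depended on Cre-positive sample 1, without which it was 0.62, while it was 1.78 without Cre-positive sample 2.

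The upstream sequences of these genes, the members with the largest differences, are shown because a promoter is where factors such as Ikaros or Oct proteins could bind. They are the 250 bases before the annotated start in RefSeq, build GRCm38.p6, written 5′ to 3′ on the strand of the gene, which is the minus strand for both: chr5:88527898-88528147 for Jchain and chr7:44532072-44532321 for Spib. Capitals mark any match on either strand to GGGAA (the core bound by Ikaros), ATTTGCAT (the octamer bound by Oct factors together with Pou2af1), CCCNNGGGA (from the Ebf1 motif) or GAGGAA (an Ets family core).
Jchain: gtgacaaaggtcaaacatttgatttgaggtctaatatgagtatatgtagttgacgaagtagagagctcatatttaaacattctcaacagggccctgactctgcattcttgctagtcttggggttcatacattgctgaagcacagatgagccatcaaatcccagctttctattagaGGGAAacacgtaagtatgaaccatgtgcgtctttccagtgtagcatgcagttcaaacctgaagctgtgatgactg
Spib: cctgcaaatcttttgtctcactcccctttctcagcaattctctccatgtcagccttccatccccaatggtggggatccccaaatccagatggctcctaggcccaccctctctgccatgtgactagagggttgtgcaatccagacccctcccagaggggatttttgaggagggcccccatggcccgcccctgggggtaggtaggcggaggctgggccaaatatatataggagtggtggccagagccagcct
The Jchain sequence holds 1 match to GGGAA, 75 to 71 bases before the start, and no match to the other motifs. The Spib sequence holds none of them. Over all 32851 such windows 56.2% held GGGAA, 1.6% the octamer, 5.6% the Ebf1 letters and 23.3% GAGGAA. RefSeq windows matched 7 of the 9 members, with 8 windows in all. GGGAA was also found upstream of Pou2af1, Cd79a, Pax5 and Ebf1, and the octamer only upstream of Blnk, 130 to 123 bases before its start. A match is a description of letters and not a binding site.

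The factors that specify the B lineage were low and nearly level. The brighter of 2 Pax5 probe sets read 4.94 and 4.98 without Cre against 5.0 and 5.29 with Cre, a difference of 0.18 (SE 0.14). The other read 4.03 and 3.77 against 4.14 and 4.06, a difference of 0.19 (SE 0.13). In both the Cre-positive arrays were the higher ones, and the gap between the groups was only 0.02 in each. The 5 Ebf1 probe sets differed by −0.19, −0.18, 0.03, 0.10 and 0.11, with SEs between 0.11 and 0.14. Their arrays were all between 2.81 and 3.78, at or below the lower quartiles of the arrays, in both groups. One Ebf1 probe set was lower and 1 higher on both Cre-positive arrays, and the other 3 overlapped.

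Pou2af1, the coactivator of Oct factors, read 4.58 and 4.10 without Cre against 4.88 and 4.92 with Cre. The Cre-positive arrays were the higher ones, and the difference was 0.56 (SE 0.18), or 1.48-fold.

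The receptor chains and their partners differed little. Cd79a read 4.38 and 4.13 without Cre against 4.54 and 4.50 with Cre, a difference of 0.27 (SE 0.13) with arrays that did not overlap. Cd79b had the highest signal among the members, above 83.1% of all probe sets in the Cre-negative mean and 82.5% in the Cre-positive mean. It read 8.36 and 8.55 without Cre against 8.14 and 8.60 with Cre, with arrays that overlapped and a difference of −0.08 (SE 0.18). Blnk read 5.36 and 5.07 against 5.33 and 5.01, a difference of −0.05 (SE 0.17). Blk read 4.46 and 4.76 against 4.69 and 4.54, a difference of 0.01 (SE 0.15). The arrays of both genes overlapped between the groups.

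**Figure D1:**
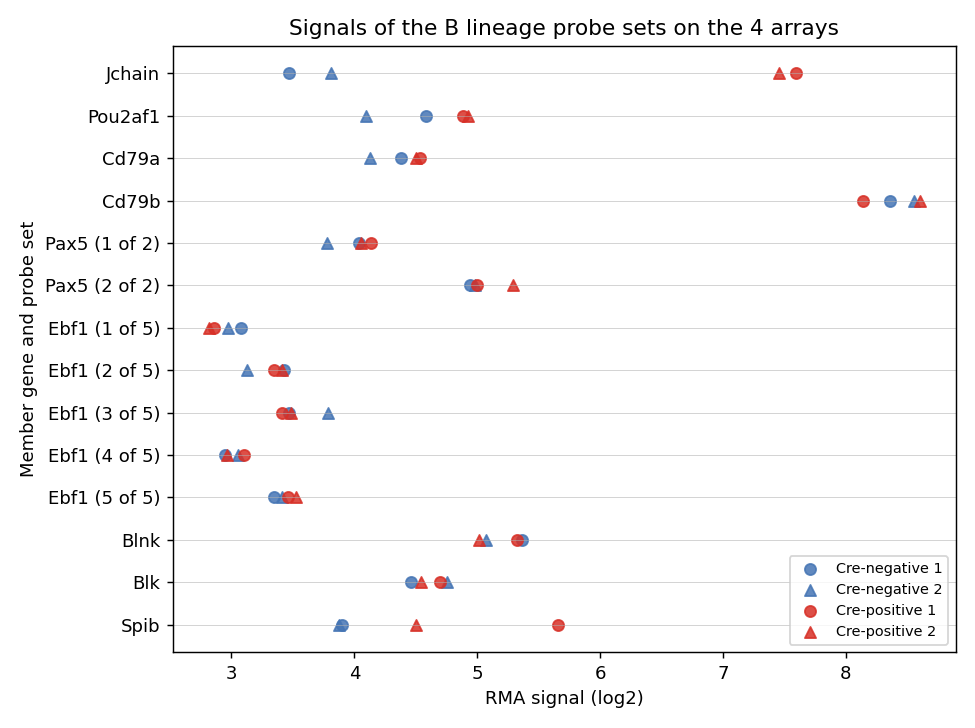
RMA log2 signal (horizontal axis) of each of the 14 member probe sets (rows) on the 4 arrays, with colour for the group and shape for the sample number. Jchain is the only row with a wide gap between the groups (3.47 and 3.81 against 7.60 and 7.45), and Cd79b is high on all arrays.

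As a set, 7 of the 14 probe sets had both Cre-positive arrays above both Cre-negative arrays, where 24.1% of all probe sets did. One had both below, against 22.0%, and 6 overlapped. In limma 1 of the 14, Jchain, passed as higher (with 1 array left out, only in the fit without Cre-negative sample 1), where 0.715% of all probe sets passed in that direction and 1.72% in either. The other 13 did not pass, and of these Pou2af1 and Spib had an unadjusted p under 0.05, as did 16.8% of all probe sets. Because the same contrast chose the members, nothing is read from these counts. The 13 had a median difference of 0.10, against 0.01 over all probe sets, and 11 of them differed by less than 0.3 in either direction. With 1 probe set per gene the 8 other genes had a median difference of 0.10.

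**Figure D2:**
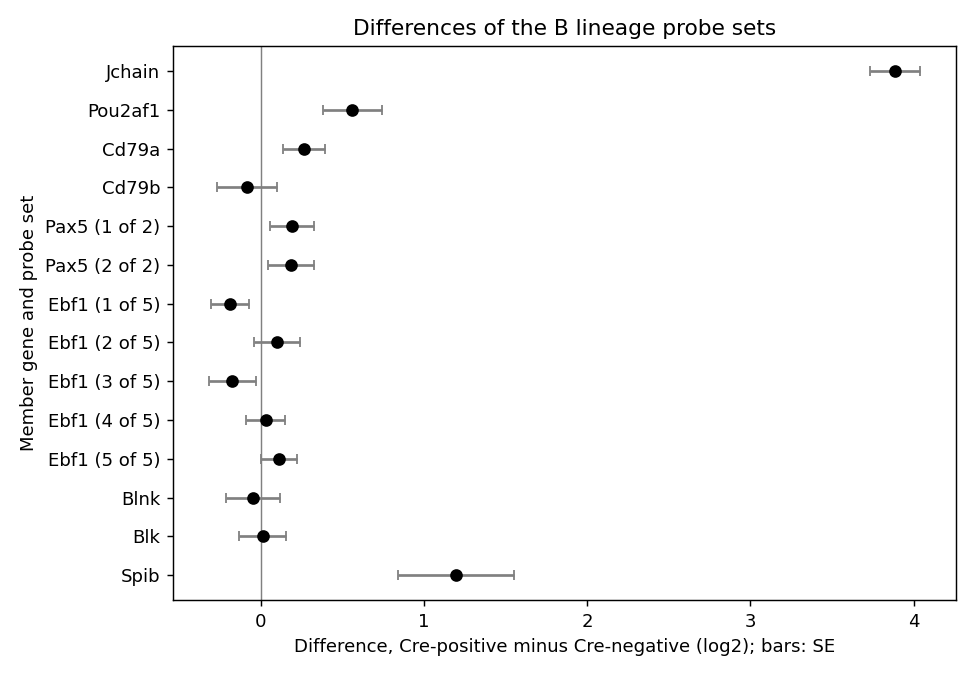
Difference of the group means (Cre-positive minus Cre-negative, log2, horizontal axis) for each member probe set (rows), with bars for the SE from limma. Jchain lies at 3.89 and Spib at 1.20, and the other 12 lie between −0.19 and 0.56.

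Other genes of the B lineage were compared next. Each gene was represented by its brightest probe set. Of all 18193 genes 1.29% passed in either direction, 185 as higher and 49 as lower, with a median difference of 0.03. That is the background for each count of passing genes below. Of 17 listed B cell genes, 15 were measured and 0 passed in limma, while 4 had an unadjusted p under 0.05, all higher. Over all genes 15.1% had such a p, and 10.4% had one with the higher signal in Cre-positive mice, which is the background for each count of unadjusted p below. Bank1, a B cell scaffold protein, read 3.88 and 4.20 without Cre against 4.74 and 5.52 with Cre, a difference of 1.09 (SE 0.27, limma adjusted p = 0.113). Ms4a1, which encodes CD20, differed by 0.71 (limma adjusted p = 0.0964) and by 0.48 in its other probe set. Fcrla, an Fc receptor-like protein, differed by 0.69, but its other 2 probe sets by 0.11 and −0.02. The list median was 0.13. In 9 of the 15 genes both Cre-positive arrays were the higher ones, against 28.5% of all genes, and in 1 both were lower, against 17.6%. Beside Bank1, Ms4a1 and Fcrla the separations were smaller. Cd72, which also had an unadjusted p under 0.05, differed by 0.35, Fcmr by 0.28, Fcrl1 by 0.22 and Tnfrsf13c by 0.18. Cd22, an inhibitory coreceptor, differed by 0.13 and Cxcr5, a chemokine receptor, by 0.04. The surrogate light chain genes Vpreb1 and Igll1 differed by −0.18 and −0.02. Ralgps2 differed by −0.09 in its brightest probe set. Its dimmer probe sets differed by −0.49 and −0.74, with both Cre-positive arrays the lower ones in each.

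Among 10 measured regulators used by B cells and other lineages 1 rose and 0 fell. Irf8, a factor of B cells and of dendritic cells and macrophages, read 5.63 and 5.65 without Cre against 6.53 and 6.91 with Cre, a rise of 1.08 (SE 0.16, limma adjusted p = 0.0452). Its other probe set differed by 0.60. Irf4, a factor of plasma cells and activated lymphocytes, differed by 1.02 (limma adjusted p = 0.0726), with 0.20 in its other probe set. Ikzf3, which encodes the Ikaros relative Aiolos, differed by 0.23, and the list median was 0.00. Other regulators were level or lower. Foxo1 differed by 0.01 in its brightest probe set and by −0.43, −0.33 and 0.11 in its dimmer ones. Bcl6 differed by −0.11, with −0.43 in its other probe set, and Tcf3 by −0.14. Among 8 measured genes of B cell receptor signalling and costimulation, Ly86, the partner of the receptor CD180, rose by 0.90 (SE 0.13, limma adjusted p = 0.0466), from 4.24 and 4.29 to 5.29 and 5.03. Cd180 itself differed by 0.13. The tetraspanin gene Cd37 differed by −0.87 (limma adjusted p = 0.134), though its other probe set differed by −0.17, and Plcg2 differed by 0.30. The median of that list was 0.16. Irf8 and Ly86 no longer passed with any of the 4 arrays left out.

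**Figure D3:**
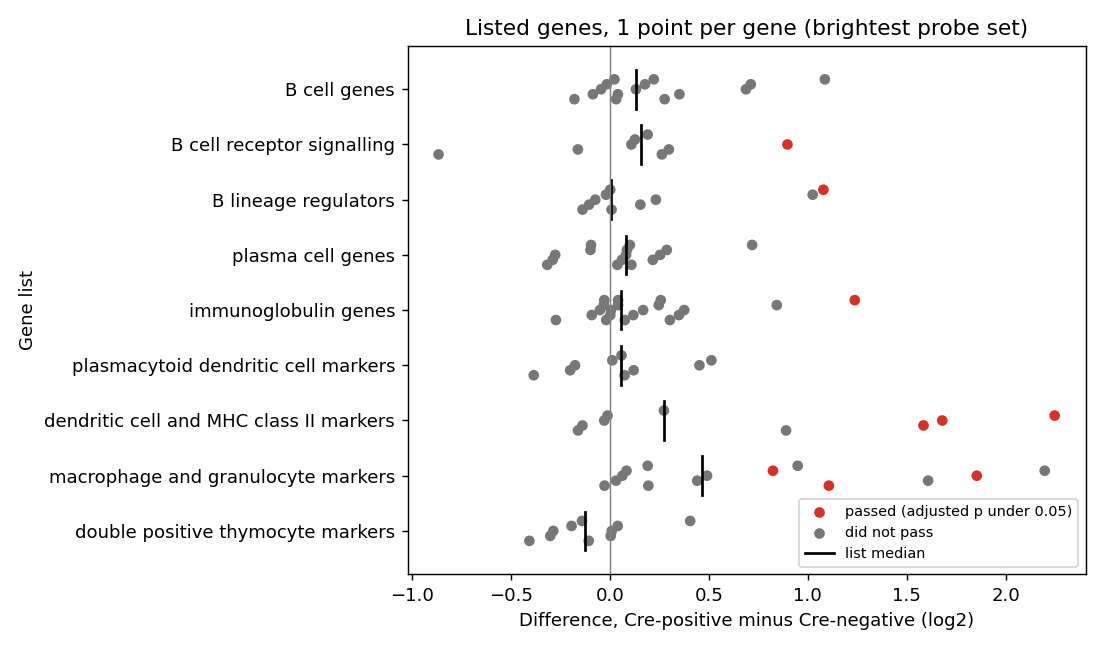
Difference between the groups (Cre-positive minus Cre-negative, log2, horizontal axis) for each gene of 9 lists (rows), 1 point per gene by its brightest probe set, red where limma's adjusted p was under 0.05, with a black bar at the list median. The B cell genes hold no red point and a median of 0.13, while the macrophage and granulocyte markers hold 3 and a median of 0.47.

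Jchain is made with immunoglobulin in plasma cells, so genes of that cell type were also compared. Of 15 plasma cell genes, 0 passed in limma by their brightest probe set and 1 had an unadjusted p under 0.05 (15.1% of all genes), with a list median of 0.08. That gene was Sdc1, which encodes the plasma cell surface proteoglycan CD138 and is also made by epithelial cells. Its brightest probe set differed by 0.72 (limma adjusted p = 0.0528). The 3 dimmer Sdc1 probe sets differed by 3.28, 1.62 and 0.28, and the first 2 of these passed (limma adjusted p = 0.0127 and 0.027). The one with the largest difference read 2.48 and 2.58 without Cre against 6.12 and 5.51 with Cre. Its suffix marks it as able to bind several transcripts, and it passed with 1 of the 4 arrays left out, Cre-positive sample 2. The other Sdc1 probe set that passed did not do so with any array left out. Prdm1, the master regulator of plasma cells, differed by 0.08, Xbp1, the secretory pathway factor, by −0.10, and Tnfrsf17, the survival receptor of plasma cells, by 0.04. Mzb1, a chaperone for immunoglobulin assembly, differed by 0.25. Ell2 differed by −0.32 and Tnfrsf13b by −0.29. Sec11c differed by −0.10 in its brightest probe set and by −0.91 in its dimmer one (limma adjusted p = 0.0549). The dimmer Xbp1 probe sets differed by between −0.26 and 0.08.

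Immunoglobulin probe sets were compared array by array, because some differed widely between the Cre-positive arrays. The annotation gives the symbol Ighm to probe sets built on different sequence records, so which transcript an Ighm or Igha probe set detects is uncertain. By the brightest probe set 1 of 20 immunoglobulin genes rose, the kappa variable gene Igkv8-30 (1.24, SE 0.13, limma adjusted p = 0.0294), from 5.15 and 5.24 to 6.33 and 6.53. It no longer passed with any array left out, and its probe set can bind several transcripts. The list median was 0.06. The brightest probe set with the symbol of Ighm, the heavy chain gene of immunoglobulin M, was high in all mice, at 12.79 and 12.89 without Cre against 12.52 and 12.62 with Cre, and differed by −0.27. The other Ighm probe sets were not alike. One rose by 3.17 (SE 0.33, limma adjusted p = 0.0301), from 3.95 and 3.98 to 6.61 and 7.66, and did not pass with any array left out. Another read 5.18 and 5.44 without Cre, then 8.08 in Cre-positive sample 1 and 5.12 in Cre-positive sample 2. A further one read 3.75 and 3.50 without Cre, then 6.39 in Cre-positive sample 1 and 3.53 in sample 2. In these last probe sets only Cre-positive sample 1 was high.

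The alpha heavy chain gene Igha had the same array on top. Its 3 probe sets read 8.71, 8.39 and 7.89 in Cre-positive sample 1, and 6.77, 6.64 and 6.72 in Cre-positive sample 2. In the Cre-negative mice they lay between 5.58 and 6.54. Their differences of 2.09, 1.80 and 0.84 did not pass (limma adjusted p = 0.144, 0.16 and 0.326). Of the 43 immunoglobulin probe sets, 7 were at least 1 higher in Cre-positive sample 1 than in sample 2 and 1 was at least 1 lower. Over all 45037 probe sets, 153 and 195 were. Jchain itself differed by 0.14 between these arrays, and 23 of the 43 immunoglobulin probe sets differed by more and 20 by less.

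**Figure D4:**
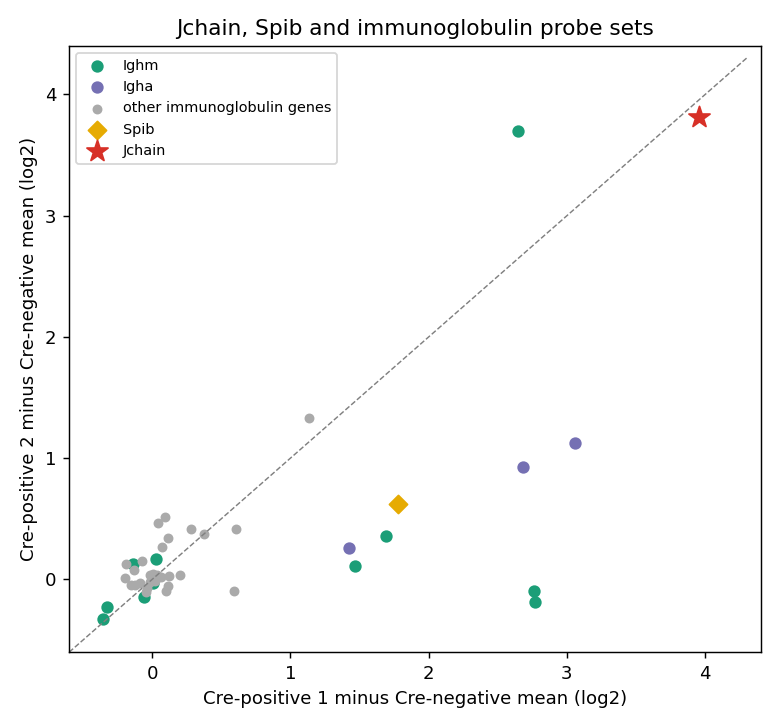
Signal of Cre-positive sample 1 (horizontal axis) and sample 2 (vertical axis), each minus the Cre-negative mean (log2), for Jchain, Spib and the 43 immunoglobulin probe sets; on the dashed line both arrays have the same value. Jchain lies near the line, while the Igha probe sets, several Ighm probe sets and Spib lie below it, with the higher signal in Cre-positive sample 1.

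Cells other than B cells also transcribe Jchain, Spib or both, and their markers were compared. Of 9 measured markers of plasmacytoid dendritic cells 0 passed by the brightest probe set in limma, 2 had an unadjusted p under 0.05 (15.1% of all genes), and the list median was 0.06. Siglech, a defining surface receptor of these cells, read 5.40 and 5.03 without Cre against 5.21 and 5.24 with Cre, and differed by 0.01. The kallikrein gene Klk1 differed by 0.51 (limma adjusted p = 0.0887), with its other 3 probe sets between 0.11 and 0.21. The transcription factor gene Tcf4 differed by 0.45, with its other probe sets between 0.18 and 0.45. Ly6d, also a thymocyte gene, differed by −0.39. The mean signal of the list was 7.69 on both Cre-negative arrays and 7.72 and 7.77 on the Cre-positive arrays. It included bright genes that thymocytes make too, Ly6d and Ccr9, with Cre-negative means of 10.48 and 13.23. The list mean is therefore no measure of plasmacytoid dendritic cells alone. The chemokine receptor gene Ccr9, which double positive thymocytes also express, differed by −0.18 in its brightest probe set, and 3 dimmer ones fell by between 0.91 and 0.97 (limma adjusted p from 0.0327 to 0.0482), none of which passed with any array left out.

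Some genes on the lists of dendritic cell and macrophage markers rose, and most did not pass. Over all 18193 genes 185 passed as higher and 49 as lower. Of 9 measured dendritic cell and MHC class II markers 3 rose and 0 fell: H2-Aa by 2.25, H2-Eb1 by 1.68 and H2-Ab1 by 1.58, all antigen-presenting class II genes that B cells make too (limma adjusted p from 0.0422 to 0.0484). On the same list Cd74 differed by 0.89 without passing (limma adjusted p = 0.0558). Ciita differed by −0.03, and by −0.01 and −0.23 in its dimmer probe sets. The dendritic cell genes Itgax, Flt3 and Zbtb46 differed by 0.27, −0.16 and −0.14. Of 14 macrophage and granulocyte markers 3 rose and 0 fell: the lysozyme gene Lyz2 by 1.85, the complement gene C1qa by 1.11 and the adaptor gene Tyrobp by 0.82 (limma adjusted p from 0.0234 to 0.0498). C1qa had an adjusted p of 0.051 with arrays centred on their medians. The mean signal of the macrophage and granulocyte list was 4.67 and 4.72 without Cre against 5.15 and 5.66 with Cre. The granulocyte genes S100a8 and S100a9 were high in Cre-positive sample 2 alone, at 8.38 and 7.14, against 4.52 and 3.74 in Cre-positive sample 1. The macrophage genes Adgre1, Itgam and Cd14 differed by −0.03, 0.08 and 0.03, C1qc by 0.95, and C1qb by 0.49 to 1.41 over its probe sets. Csf1r differed by 0.19 in its brightest probe set and 0.20 in another, and rose by 1.21 in a further one (limma adjusted p = 0.0366). Of the 14 genes, 13 had a difference above 0 by the brightest probe set. The mean signal of the dendritic cell list was 5.49 and 5.24 without Cre against 6.06 and 6.08 with Cre. Whether other cells in the samples had a part in the Jchain signal was not tested, and in bulk RNA more cells of a type and more RNA per cell cannot be told apart. None of these calls held with any array left out.

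Earlier thymocytes, which transcribe Cd79b and Spib, were compared by their markers: of 9 double negative and progenitor genes 0 passed in limma and 1, Cd44 at −0.61, had an unadjusted p under 0.05 (15.1% of all genes). Il2ra differed by −0.40 and Hhex by 0.27, and the list median was −0.03. Among 7 markers of gamma delta T and NK cells, where Blk is also made, Gzma rose by 1.43 (SE 0.18, limma adjusted p = 0.0392), 0 fell, and the median was 0.17. The T cell factor gene Tbx21 differed by 0.50 and Maf by 0.28. Among 10 stromal and epithelial markers Pdgfrb rose by 1.05 (SE 0.13, limma adjusted p = 0.0389), with a median of −0.02. Its dimmer probe set rose by 3.24 (SE 0.28, limma adjusted p = 0.0234), from 3.90 and 3.98 to 6.75 and 7.62. The collagen gene Col1a2 differed by 4.52 without passing. It read 11.55 in Cre-positive sample 1 and 8.01 in sample 2, the same order as for Spib and Igha. The other collagen genes of the list, Col1a1 and Col3a1, both differed by −0.03, and 4 of the 10 genes had a difference above 0. Gzma and Pdgfrb did not pass with any array left out. Of 3 erythroid markers 0 passed in limma and 0 had an unadjusted p under 0.05, with Hba-a1 at 0.14. Of 10 double positive thymocyte markers 0 passed in limma and the median was −0.12. An unadjusted p under 0.05 was found for 3 of them, the coreceptor genes Cd8a (−0.30) and Cd8b1 (−0.29) and the T cell receptor complex gene Cd3e (0.41), where 15.1% of all genes had one. Rag2 differed by −0.41.

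By the brightest probe set of each gene, the genes whose profile over the 4 arrays was most like that of Jchain were not B lineage genes. Dimmer probe sets were not compared, among them the Sdc1 and Ighm probe sets that rose most. Likeness was the Euclidean distance between log2 profiles, each centred on its own mean, over 16312 named genes. The closest was Ppic, which encodes the prolyl isomerase cyclophilin C, at a distance of 0.48, with signals of 3.85 and 4.00 against 8.12 and 8.31. The next were the lymphocyte GTPase gene Gimap4 at 0.56, the collagen receptor kinase gene Ddr1 at 0.77, the metalloproteinase gene Mmp14 at 0.85 and the adhesion gene Mpzl2 at 0.90. With 2 arrays per group, this measure mostly ranks genes by having a difference of similar size.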

How the data were processed

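Total RNA from 4 mice was labelled in a 2-cycle assay and hybridised to Affymetrix mouse arrays, per the labels' protocols. The deposited values are log2 signals made by the authors with RMA, per the submitters' processing notes. No source used here gives its version or the base of the logarithm; base 2 was taken because RMA returns it. Symbols came from the platform annotation: of 45037 probe sets 34945 had 1 symbol and only these were named.

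The groups were compared with limma (version 3.58.1, R 4.3.3, lmFit and eBayes without trend, two-sided) over all probe sets without a filter, so that every member was fitted, with 2 residual and 3.82 prior degrees of freedom. The members and lists were chosen with earlier results of these data known. Named were all member probe sets, Ikzf1, Cd4, Cd8a, Rag1, called list genes, otherwise up to 3 per list with the largest difference, and the 5 profiles nearest Jchain. Other listed genes and probe sets given were chosen after their values were seen, among them the Sdc1, Ighm, Igha and Ccr9 probe sets. On simulated data for this comparison, with 45037 probe sets, the fit recovered 34 of 100 changes of 1 and 98 of 100 changes of 2 (log2), and 9 of 141 calls were false. Sample numbers were not taken to pair mice. Figures used matplotlib 3.10.9.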

Additional observations from a re-analysis of the deposited data

How the results depend on the processing

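The Jchain difference stayed between 3.72 and 4.06 under every alternative run, and centring each array on its median gave 3.86. The number of probe sets passing in limma did not stay: it was 774 in the fit over all probe sets, 160 with 1 probe set per gene and the filter at the 40th percentile, and between 0 and 16 with 1 array left out. The fits with 0 were those without Cre-negative sample 2 and without Cre-positive sample 1, in which 7705 and 5215 probe sets had an unadjusted p under 0.05. Immunoglobulin genes, B lineage regulators and B cell receptor signalling genes each had 0 calls with any array left out. That filter kept 4 members, Jchain, Cd79b, Pax5 and Blnk, left the median of the other members at −0.048, and removed Ly86, so the receptor signalling list had 0 calls. Leaving out every probe set with an s, x or a suffix, the immunoglobulin genes had 0 calls, since Igkv8-30 was left out. With the sample number as a replicate block 2273 probe sets passed, 3 B cell genes, 1 plasma cell gene, 2 B lineage regulators and 2 receptor signalling genes. Deviations of same-numbered arrays correlated at 0.13, and the mice have different numbers, so this block is not a pairing known from the labels. RMA gives no counts, and 2 arrays per group limit the precision.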
